A study of Mus musculus with 2 samples.

Results

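The genes described here are 10 genes of the bone morphogenetic protein (BMP) receptor pathway that is linked to pulmonary hypertension: the ligand gene Bmp6, the receptor genes Bmpr2 and Acvrl1, the co-receptor gene Eng, the target genes Id1, Id2, Id3 and Tmem100, and the genes of the inhibitory SMADs, Smad6 and Smad7. They were taken by symbol, and all 10 were found among the 31053 genes of the matrices. Their levels are described by cell class, by endothelial subtype and by library. The data are single-cell transcriptomes of mouse lung from 2 libraries, 1 from normoxia and 1 from hypoxia. Both came from C57/B6 mice of 2 to 4 months, male and wild-type by the study's methods, and the hypoxia mice had spent 3 weeks in low oxygen. Leukocytes (CD45) and epithelial cells (CD326) were depleted with antibody-coated beads before capture, so the shares of cell types are set in part by the sort. The hypoxia cells came from several animals, and the number of normoxia animals and any pooling of cells before capture are not given in the sources used here.

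BMP ligands bind a complex of type 1 and type 2 receptors at the cell surface. On endothelial cells (EC) the type 1 receptor is ALK1, encoded by Acvrl1, the type 2 receptor is BMPR2, and endoglin, encoded by Eng, helps the ligand bind. The activated complex phosphorylates SMAD1, SMAD5 and SMAD9, which join SMAD4 in the nucleus and switch on genes such as the Id genes. SMAD6 and SMAD7 are made in response and dampen the signal. Inherited loss of BMPR2 is the best known genetic cause of pulmonary arterial hypertension, and variants of ACVRL1 and ENG cause hereditary hemorrhagic telangiectasia, in some patients with pulmonary hypertension.

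In each captured transcript a unique molecular identifier (UMI) marks 1 molecule. The normoxia library held 2223 barcodes with 7630683 UMIs and the hypoxia library 809 barcodes with 2685345 UMIs, and 1348 and 689 cells remained after filtering on detected genes and mitochondrial UMIs. A level is the sum of a gene's UMIs in all cells of 1 class and library, scaled to 1000000 UMIs in total (CPM), and a ratio is the level in hypoxia divided by the level in normoxia. Values in parentheses after a level or ratio are 95% intervals that cover counting error only. With 1 library per condition no test between conditions was possible, and a difference between the libraries cannot be told apart from a difference between animals or preparations. Clusters were named from marker lists, as "X-like", and 8 classes had a name. The libraries shared 1 barcode. EC-like cells were 811 of the normoxia and 578 of the hypoxia cells, with median depths of 3969 and 2702 UMIs. Their 10 EC markers, among them Cdh5, Pecam1 and Cldn5, summed to 13610 CPM in normoxia and 13605 CPM in hypoxia. The libraries filled different EC-like clusters: a cluster led by Ntrk2 held 198 hypoxia and 6 normoxia cells, and a cluster led by 4930403P22Rik held 141 normoxia and 3 hypoxia cells. Immediate-early genes, which cells switch on within minutes of stimulation, were lower in the hypoxia library, and their values are given beside the ratios of the members.

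In the GENCODE annotation of GRCm38 the ligand and receptor genes are Bmp6 at chr13:38345107-38500302, Bmpr2 at chr1:59763400-59879014, Acvrl1 at chr15:101128522-101145336 and Eng at chr2:32646595-32682669, all on the plus strand. The targets are Id1 at chr2:152736251-152737410, Id3 at chr4:136143497-136145755 and Tmem100 at chr11:90030348-90036508 on the plus strand and Id2 at chr12:25093799-25097140 on the minus strand. Of the inhibitory SMADs, Smad6 is at chr9:63953076-64022059 on the minus strand. No annotated gene that overlaps a member on its own strand had a UMI.

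The promoter sequences of 2 genes are shown because their genes, Eng and Smad6, were among the members with the lowest ratios in EC-like cells and because both windows lie outside the annotated gene. They are the 250 bases before the transcript start in RefSeq (GRCm38.p6), printed 5′ to 3′ on the strand of the gene. A window was found for 6 of the 10 members, and the windows of Bmpr2, Bmp6, Id2 and Id3 overlap the GENCODE gene and are not printed. Capitals mark matches to 3 motifs: the GC-rich element that SMAD1 and SMAD5 bind (GGCGCC), the SMAD box (CAGAC, or GTCTG on the other strand) and the core of the hypoxia response element (ACGTG or GCGTG, on the other strand CACGT or CACGC).
Eng, chr2:32646345-32646594, plus strand: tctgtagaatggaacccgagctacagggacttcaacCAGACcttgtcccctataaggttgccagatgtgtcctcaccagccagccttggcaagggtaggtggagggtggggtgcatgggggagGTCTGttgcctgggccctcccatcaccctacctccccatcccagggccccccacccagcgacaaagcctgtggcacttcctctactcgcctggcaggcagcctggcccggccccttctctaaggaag
Smad6, chr9:64022060-64022309, minus strand: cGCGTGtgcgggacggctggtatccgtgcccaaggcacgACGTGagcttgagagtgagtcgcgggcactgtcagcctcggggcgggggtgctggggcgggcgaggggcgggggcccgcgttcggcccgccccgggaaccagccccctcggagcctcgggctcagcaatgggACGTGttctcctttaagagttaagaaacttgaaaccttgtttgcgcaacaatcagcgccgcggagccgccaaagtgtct
The Eng window holds the SMAD box at 214 and 127 bases before the start, and neither of the other motifs. The Smad6 window holds the hypoxia core at 249, 211 and 79 bases before the start, and neither of the other motifs. Among the windows not printed, Bmpr2 and Id2 hold GGCGCC, Bmp6 holds a SMAD box and a hypoxia core, and Id3 holds both of these as well. The motifs are short: of 32851 windows of the same length, 42.2% hold a SMAD box, 38.6% a hypoxia core and 9.59% GGCGCC. A match is a run of letters, not a measured binding site, and the palindrome GTCTAGAC was found in none of the 6 windows and in 0.167% of all.

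In normoxia, 9 of the 10 members had their highest level in EC-like cells among the named classes, and the exception was Id3. The share of all genes that lead in EC-like cells was not counted, so this count is a description only. For Bmpr2, Acvrl1, Bmp6 and Smad7 the interval of the EC-like cells did not meet that of the next class, and for the other members it did. Bmpr2 stood at 2300 CPM in EC-like cells (2250 to 2351), and the lowest class was AT2-like at 86.6 CPM. Fibroblast-like cells had 262 CPM of Bmpr2 (228 to 299) and SMC-like cells 314 CPM (213 to 446), so the 2 mesenchymal classes were not separated from each other. Acvrl1 stood at 1281 CPM in EC-like cells (1244 to 1319) and at 115 CPM in fibroblast-like cells (92.9 to 141). No UMI of Acvrl1 was found in the 7 AT2-like normoxia cells, which allows up to 52.0 CPM at 3 counts. SMC-like cells had 50.6 CPM of Acvrl1 (16.4 to 118), from 5 UMIs. The type 1 and type 2 receptors thus shared their leading class.

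Eng, the co-receptor, stood at 1263 CPM in EC-like cells (1226 to 1301), 814 CPM in pericyte-like cells (692 to 953) and 58.7 CPM in fibroblast-like cells (43.3 to 77.8). Bmp6, the ligand, was at 365 CPM in EC-like cells (346 to 386) and 12.2 CPM in fibroblast-like cells (5.86 to 22.5). SMC-like cells held no UMI of it, which allows up to 30.4 CPM at 3 counts. Lymphatic EC-like cells were few, 11 in normoxia and 3 in hypoxia. They had 478 CPM of Bmpr2 (292 to 738), 143 CPM of Acvrl1 (52.6 to 312) and 502 CPM of Eng (311 to 767), each below the interval of the EC-like cells.

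The target genes differed from one another in their spread over the classes. Id3, a dominant-negative helix-loop-helix protein that BMP signaling induces, was at 1044 CPM in pericyte-like cells (904 to 1199), 913 CPM in EC-like cells (882 to 946), 761 CPM in fibroblast-like cells (702 to 823) and 709 CPM in SMC-like cells (553 to 896). Id1, of the same family, was at 432 CPM in EC-like cells (411 to 455) and at 55.0 CPM in fibroblast-like cells (40.1 to 73.6). Id2 was low throughout, with 120 CPM in EC-like cells (109 to 132) and 91.2 CPM in SMC-like cells (41.7 to 173), whose intervals overlap. Tmem100, a membrane protein that lies downstream of ALK1 in endothelium, was at 2256 CPM in EC-like cells (2207 to 2307), 218 CPM in fibroblast-like cells (187 to 252) and 81.0 CPM in SMC-like cells (35.0 to 160). Of these targets, Id1 and Tmem100 lay far below the EC-like level in both mesenchymal classes, and Id3 did not. Smad6 was at 352 CPM in EC-like cells (333 to 372) and 20.8 CPM in fibroblast-like cells (12.1 to 33.3), and Smad7 at 625 CPM (599 to 652) and 172 CPM (145 to 203).

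**Figure D1:**
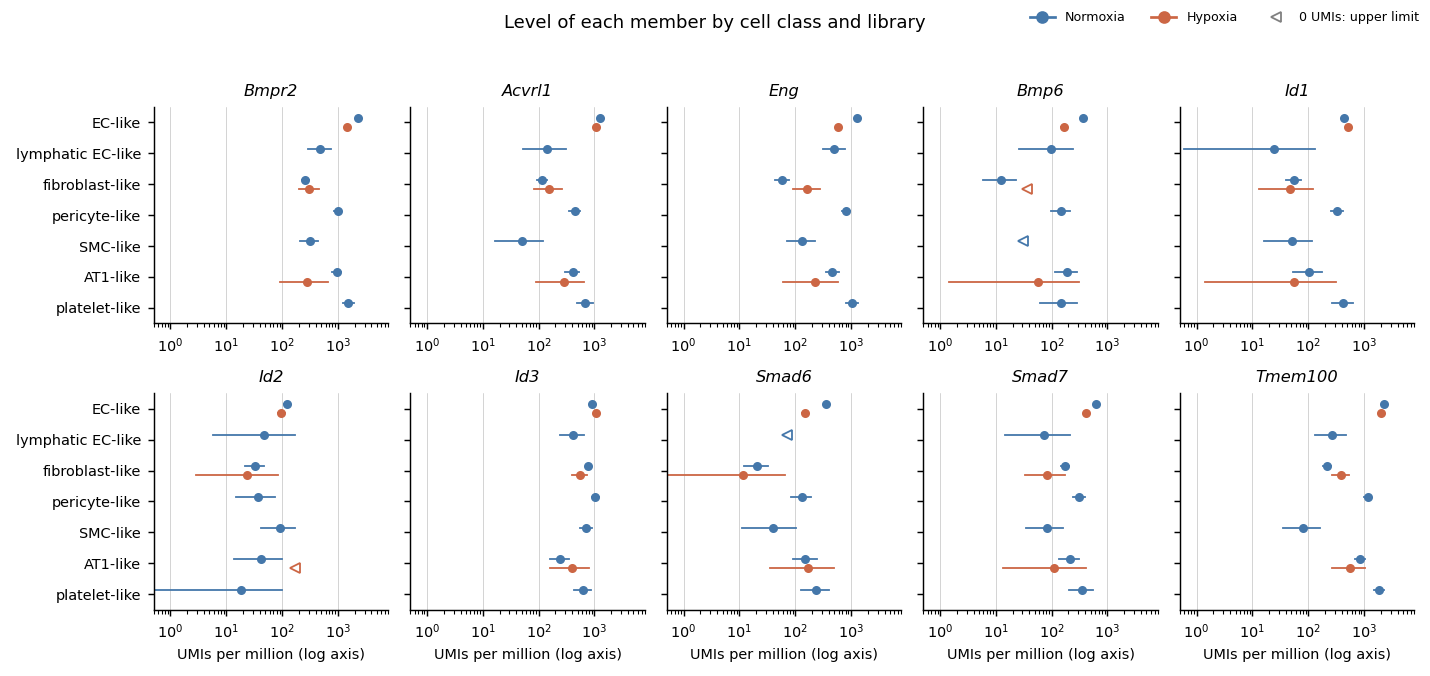
Level of each member (CPM on a log axis, points, with 95% counting intervals as lines) in each marker-defined class, in the normoxia and the hypoxia library; groups of fewer than 10 cells are left out, and an open triangle marks 0 UMIs at the level that 3 counts would give. EC-like cells lead for 9 of the 10 members in normoxia (share over all genes not counted), while Id3 is also high in pericyte-like, fibroblast-like and SMC-like cells.

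Other classes also carried EC transcripts, so each member was set against the EC markers of the same cells. Per EC marker UMI and relative to EC-like cells of the normoxia library, the members stood at 0.757 to 1.64 in AT1-like cells and at 0.251 to 1.61 in platelet-like cells, where 1 is the value of EC-like cells. Platelet-like cells held 8203 CPM of EC markers and AT1-like cells 4234 CPM, and the part of EC transcripts in the members' levels there was not tested further. In fibroblast-like cells, with 385 CPM of EC markers, Id3 stood at 29.4, Smad7 at 9.74, Id2 at 9.72, Bmpr2 at 4.02 and Tmem100 at 3.41 on this scale, while Bmp6 stood at 1.18 and Eng at 1.64. In SMC-like cells, with 101 CPM of EC markers, Id3 stood at 104 and Id2, from 9 UMIs, at 102. The other members ran from 0 for Bmp6 to 18.3 for Bmpr2. The SMC-like class was only 16 cells with 98730 UMIs in all. Few EC marker UMIs thus lie under these values, which carry no intervals. The pericyte-like class was 2 clusters. A cluster led by Spp1 (24 normoxia cells) held 10737 CPM of EC markers, and a cluster led by Pdgfrb (22 normoxia cells) held 1537 CPM. In the Pdgfrb-led cluster Id3 stood at 11.4, Eng at 4.08, Smad7 at 3.65 and Bmpr2 at 2.37 per EC marker, while Bmp6 stood at 0.604. Its levels were 1179 CPM of Id3 (993 to 1390), 581 CPM of Eng (453 to 735) and 615 CPM of Bmpr2 (483 to 772). Bmp6 and Eng of fibroblast-like cells thus lay nearest to their share of EC transcripts. Id3 of the mesenchymal classes lay farthest from it, with Id2 about as far in SMC-like cells. The hypoxia library held 1 pericyte-like cell and no SMC-like cell, so no hypoxia ratio is given for these classes.

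Within EC-like cells, markers separated aerocytes, general capillary, arterial and venous cells, which together with unnamed EC make up the class. Unnamed EC were 262 of the 811 normoxia and 317 of the 578 hypoxia cells, the largest group in hypoxia. Their median depths were 3637.5 and 1685 UMIs, so the 4 named subtypes leave out many hypoxia cells. The capillary bed of the lung has 2 endothelial types: aerocytes, large cells over the gas exchange surface, and general capillary cells, which renew the bed. In normoxia Acvrl1 was highest in aerocytes, at 1859 CPM, against 1219 CPM in general capillary, 1136 CPM in arterial and 894 CPM in venous cells, and of these orders only the lead of aerocytes was clear of its neighbor's interval. Bmpr2 was highest in general capillary cells, at 2565 CPM, followed by arterial cells at 2207 CPM, aerocytes at 2043 CPM and venous cells at 1754 CPM. The receptor pair thus led in different capillary types. Bmp6 divided the subtypes most: 494 CPM in general capillary and 467 CPM in arterial cells, whose intervals overlap, against 183 CPM in venous cells and 97.2 CPM in aerocytes. Eng was at 1447 CPM in general capillary and 1401 CPM in arterial cells, and at 1078 CPM in aerocytes and 1063 CPM in venous cells. Smad6 was highest in arterial cells at 584 CPM and lowest in venous cells at 219 CPM. Smad7 was lowest in aerocytes, at 396 CPM, against 785 CPM in arterial cells. Id2 was highest in venous cells, at 217 CPM, and lowest in aerocytes, at 49.3 CPM. Tmem100 was lowest in venous cells, at 1382 CPM, and highest in general capillary cells, at 2574 CPM. Id1 and Id3 were both highest in arterial cells, at 658 and 1263 CPM. Aerocytes thus combined the highest Acvrl1 with the lowest Bmp6, Id2 and Smad7 of the 4 subtypes.

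**Figure D2:**
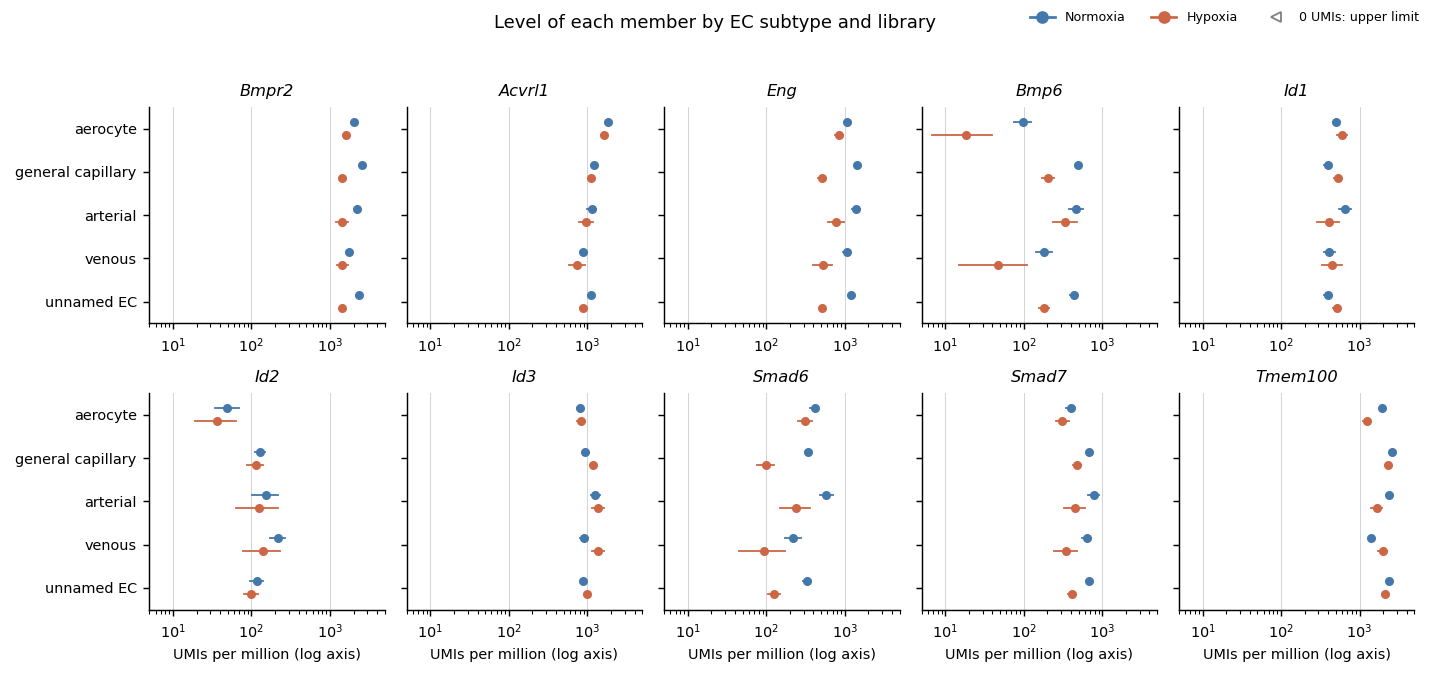
Level of each member (CPM on a log axis, points, with 95% counting intervals as lines) in the EC subtypes of each library; the unnamed EC are those whose cluster met no subtype's rule. Bmp6 has the widest spread across subtypes in normoxia, from 97.2 CPM in aerocytes to 494 CPM in general capillary cells.

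In EC-like cells as a whole, 5 members were lower in hypoxia by more than 1.5-fold, Smad6, Bmp6, Eng, Bmpr2 and Smad7, and no member was higher by that much. Of the 8687 genes with at least 50 UMIs in EC-like cells, 9.84% were lower and 7.7% higher by that fold, and the median log2 ratio was 0.03 over these genes and -0.45 over the members. The intervals of 8 members lay below a ratio of 1 and those of Id1 and Id3 above it, but the share of all genes with such an interval was not counted. Among the 8687 genes, 2.36% had a lower ratio than Smad6 and 9.57% than Smad7, with Bmp6, Eng and Bmpr2 between them. For Id2, Acvrl1 and Tmem100 this share was 21.1%, 24.3% and 31.2%, and for Id3 and Id1 it was 68.9% and 74.8%. Bmpr2, Eng and Bmp6 therefore lay low among all genes, and Acvrl1 less so. Id1 and Id3 had ratios above 1. Id2 lay below 1 by its level, but its thinned share, given below, did not follow.

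Bmpr2 was at 2300 CPM (normoxia) and 1461 CPM (hypoxia), with a ratio of 0.635 (0.609 to 0.663). Its share of EC-like cells with a UMI, after each cell was thinned to 1000 UMIs, was 83.9% in normoxia and 67.5% in hypoxia. All thinned shares leave out cells below 1000 UMIs, which were 34 of 811 EC-like cells in normoxia and 104 of 578 in hypoxia. Acvrl1 was at 1281 and 1070 CPM, a ratio of 0.835 (0.794 to 0.879), with shares of 67.4% and 62.0%. The type 2 receptor gene thus differed between the libraries by more than the type 1 receptor gene, and their intervals do not overlap. Eng was at 1263 and 582 CPM, a ratio of 0.461 (0.432 to 0.491), and a UMI was found in 69.6% and 41.1% of cells. Bmp6 was at 365 and 164 CPM, a ratio of 0.448 (0.396 to 0.506), with 28.8% and 14.3% of cells. The shares of Bmpr2, Eng and Bmp6 in the 2 libraries had intervals that did not overlap, and so did those of Smad6 and Smad7, given next. How often this occurs among all genes was not counted, so it is a description only.

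Among the feedback inhibitors, Smad6 was at 352 CPM (normoxia) and 151 CPM (hypoxia), with a ratio of 0.428 (0.377 to 0.485), the lowest of the 10, and its share of cells was 29.6% against 11.8%. Smad7 was at 625 and 414 CPM, a ratio of 0.662 (0.611 to 0.717), with shares of 46.8% and 31.4%. Smad7 lay at the edge of the 1.5-fold limit and passed it under 4 of the 10 alternatives planned for these cells, not counting groups by immediate-early level.

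The targets went the other way or little. Id1 was at 432 CPM (normoxia) and 522 CPM (hypoxia), with a ratio of 1.21 (1.12 to 1.31), and Id3 at 913 and 1057 CPM, a ratio of 1.16 (1.10 to 1.22). Their thinned shares were 31.9% and 37.1% for Id1 and 53.3% and 58.2% for Id3. For both genes the intervals of these shares overlap between the libraries, so the shares give no order. Id2 was at 120 and 97.1 CPM, a ratio of 0.809 (0.680 to 0.959). Its thinned share went against that, at 9.52% and 10.3%, with overlapping intervals, so no order is read from it. Tmem100 was at 2256 and 2011 CPM, a ratio of 0.891 (0.858 to 0.926), with 81.3% and 76.2% of cells. Free RNA in a droplet gives UMIs in cells that do not express a gene. In a cluster led by Igkc and other leukocyte genes (19 normoxia cells, median 4685 UMIs before thinning), 0 to 2 of 18 thinned cells held a UMI of each member. For Id2 this share was 11.1%, no lower than in EC-like cells, but Id2 stood there at 12.3 per EC marker UMI relative to EC-like cells, so that this cluster gives no background for Id2. Among aerocytes of normoxia, 3 of 107 thinned cells (2.80%) held a UMI of Id2.

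**Figure D3:**
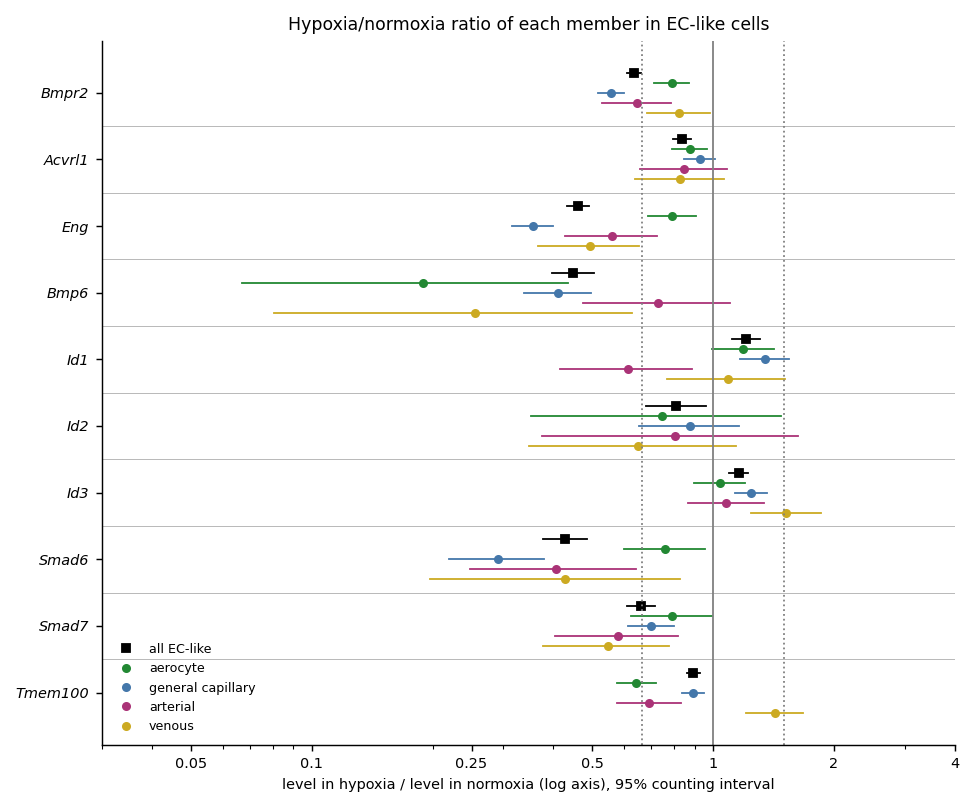
Hypoxia/normoxia ratio of each member (log axis, points, with 95% counting intervals as lines) in all EC-like cells (black squares) and in the 4 named subtypes; dotted lines mark 1.5-fold either way. Smad6, Bmp6, Eng, Bmpr2 and Smad7 lie left of the lower dotted line in all EC-like cells, and Id1 and Id3 lie right of 1.

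The subtypes differed in these ratios. General capillary cells had a ratio of 0.356 for Eng (0.315 to 0.400), and aerocytes had 0.790 (0.686 to 0.908). The quotient of the 2 ratios was 0.450 (0.375 to 0.539). For Smad6 the ratios were 0.291 (0.220 to 0.379) in general capillary cells and 0.759 (0.599 to 0.955) in aerocytes, a quotient of 0.383 (0.271 to 0.542). For Bmpr2 they were 0.556 and 0.788, a quotient of 0.706 (0.624 to 0.800). Eng, Smad6 and Bmpr2 were therefore lower in hypoxia by more in general capillary cells than in aerocytes, by counting error alone. Aerocytes numbered 113 in normoxia and only 49 in hypoxia. Among these 49, the 10 cells with most UMIs of a gene held 48.2% for Eng, 52.9% for Smad6 and 50.5% for Bmpr2. The intervals do not cover such spread between cells. Tmem100 went the other way, with 0.891 in general capillary cells and 0.644 in aerocytes, a quotient of 1.38 (1.22 to 1.57). Id3, at 1.24 and 1.04, had a quotient of 1.20 (1.01 to 1.42), whose lower bound lay close to 1. For Acvrl1, Bmp6, Id1, Id2 and Smad7 the interval of the quotient held 1. The general capillary cells came from different clusters in the 2 libraries: a cluster led by Vegfc held 114 of the 162 hypoxia cells, and clusters led by Iigp1 and Lpl held 145 and 102 of the 332 normoxia cells. Vegfc is on the list of venous markers. The Vegfc-led cluster took its name by mean fold, with 6 of the 8 general capillary markers found. How far the differences from aerocytes rest on this cluster was not tested. Unnamed EC had ratios of 0.611 for Bmpr2, 0.780 for Acvrl1, 0.430 for Eng, 0.421 for Bmp6 and 0.384 for Smad6. They had 0.602 for Smad7, 0.899 for Tmem100, 0.856 for Id2, 1.29 for Id1 and 1.11 for Id3.

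Past 1.5-fold, 4 of 10 tested members were lower in general capillary cells (background 11%), 2 of 9 in aerocytes (10.7%), 5 of 9 in arterial cells (19.6%) and 5 of 10 in venous cells (14.8%). No member was higher past that fold in general capillary cells (background 11.8%), aerocytes (8.85%) or arterial cells (14.5%), and 1 of 10 was in venous cells (13.9%). That member was Id3, at 905 CPM (normoxia) and 1377 CPM (hypoxia), with a ratio of 1.52 (1.24 to 1.85), which was 1.45 with subtypes taken cell by cell on their markers. The arterial members were Bmpr2, Eng, Id1, Smad6 and Smad7, and of these Bmpr2, at 1.01, and Id1, at 0.794, did not pass the fold with subtypes taken cell by cell (17 normoxia and 32 hypoxia cells). In aerocytes the members that passed were Bmp6, from 67 to 6 UMIs with a ratio of 0.189 (0.0670 to 0.434), and Tmem100. Bmp6 was lower in venous cells too, at a ratio of 0.256 (0.0804 to 0.627) from 66 and 5 UMIs, while its interval in arterial cells, 0.474 to 1.10 around 0.730, held 1. Acvrl1 ratios ran from 0.828 in venous cells to 0.925 in general capillary cells, the narrowest range of the receptors. Arterial cells were few, 38 in normoxia and 24 in hypoxia, and venous cells numbered 66 and 26, so their intervals are wide.

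Immediate-early genes moved with the library: 15 of 15 tested of a list of 16 were lower past 1.5-fold in hypoxia EC-like cells (background 9.84%). The 16 summed to 23427 CPM in normoxia and 7701 CPM in hypoxia. EC-like cells were therefore divided into 3 equal-sized bands by the summed level of these genes, with limits at 3532 and 14977 CPM, with 135 of the 1389 cells within 10% of a limit. The low, middle and high bands held 148, 257 and 406 normoxia cells and 315, 206 and 57 hypoxia cells. In that order the ratio of Eng was 0.480, 0.427 and 0.458. That of Bmp6 was 0.422, 0.442 and 0.451, that of Smad6 was 0.484, 0.408 and 0.507, and that of Bmpr2 was 0.554, 0.599 and 0.569. These 4 members were lower by more than 1.5-fold in each band. The share of all genes past that fold within a band was not counted, so this is a description only. Acvrl1 and Smad7 did not keep one ratio: Acvrl1 was at 0.714, 0.821 and 1.04, and Smad7 at 0.540, 0.646 and 0.825. Id1 stood at 1.03 (0.861 to 1.23) in the low band and at 1.81 (1.54 to 2.12) in the high band, and Id3 at 1.11, 1.09 and 1.13. The interval of Id3 held 1 in the low band (0.991 to 1.25) and the high band (0.982 to 1.28). In the middle band it ran from 1.004 to 1.19. Id2 stood at 0.806, 0.983 and 1.20, and its interval held 1 in each band.

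**Figure D4:**
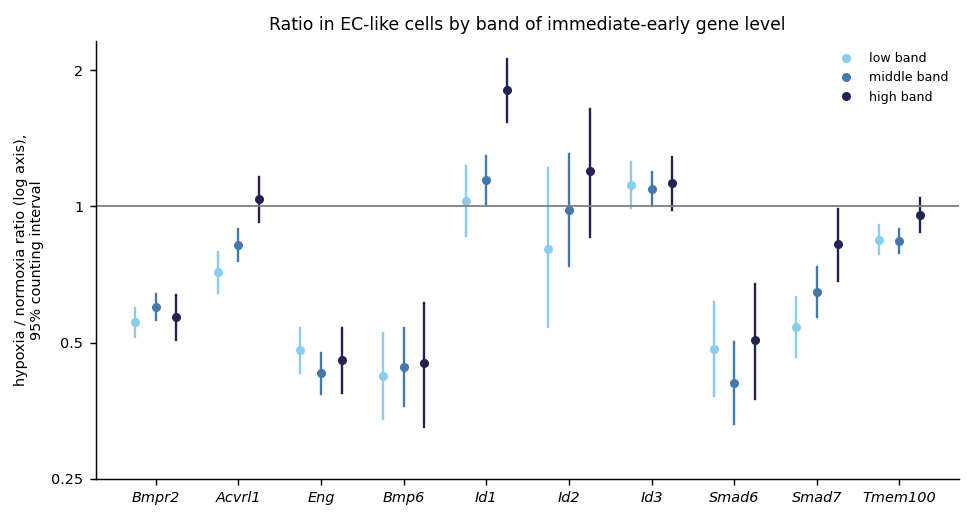
Hypoxia/normoxia ratio of each member in EC-like cells (log axis, points, with 95% counting intervals as lines) within 3 equal-sized bands of the cells by summed level of 16 immediate-early genes. Bmpr2, Eng, Bmp6 and Smad6 lie between 0.408 and 0.599 in every band, while Acvrl1, Id1 and Smad7 lie higher in the high band than in the low band.

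Of 6 members with at least 50 UMIs in fibroblast-like cells, 2 were higher past 1.5-fold in hypoxia (background 17.8%) and 1 was lower (31.6%). Eng was at 58.7 CPM (normoxia) and 166 CPM (hypoxia), with a ratio of 2.83 (1.44 to 5.21) from 48 and 14 UMIs. With a mitochondrial limit of 10% this ratio turned to 0.483. Tmem100 was at 218 and 391 CPM, a ratio of 1.80 (1.20 to 2.62). EC markers in the same cells were at 385 CPM in normoxia and 2346 CPM in hypoxia. In the fibroblast-like cells with no UMI of Cdh5, Pecam1, Cldn5 or Egfl7 (114 and 14 cells), Eng had 21 UMIs in normoxia and none in hypoxia, too few for a direction (ratio interval 0 to 2.95), and Tmem100 had a ratio of 1.08 (0.387 to 2.46). Smad7 was the lower member, with 141 and 7 UMIs and a ratio of 0.481 (0.190 to 1.02). Id3 was at 761 and 545 CPM, a ratio of 0.717 (0.519 to 0.967). Of the 35 hypoxia cells, 30 lay in a cluster led by Myh10, which held 90 of the 187 normoxia cells, and within it the ratio of Id3 was 2.22 (1.36 to 3.65). The direction of Id3 in fibroblast-like cells thus differed between the class and its main hypoxia cluster. EC markers in that cluster were at 1408 CPM (normoxia) and 3722 CPM (hypoxia). Per EC marker UMI, relative to EC-like cells of the same library, its Id3 stood at 3.32 and 2.41. In the fibroblast-like cells with no UMI of the EC genes named above, Id3 had 421 and 7 UMIs, a ratio of 0.255 (0.102 to 0.531). The part of EC transcripts in the cluster's ratio was not tested.

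Other genes of the pathway were read in EC-like cells from lists by role. Over all genes tested in EC-like cells, 7.7% were higher and 9.84% lower past 1.5-fold, which is the background for each list. Few genes of a list were tested, so the counts are a description only. Among 13 ligand genes 4 had at least 50 UMIs, 1 was higher and 1 lower past 1.5-fold. Bmp2, whose product signals through BMPR2 and other type 2 receptors, was at 1.72 CPM (normoxia) and 22.7 CPM (hypoxia), with a ratio of 13.2 (5.63 to 37.8) from 6 and 47 UMIs. The 6 normoxia UMIs came from 3 cells, all venous, and the 47 hypoxia UMIs came from 32 of 578 cells. Of these 47 UMIs, 28 lay in unnamed EC, 12 in general capillary, 6 in venous and 1 in arterial cells. Tgfb2 was the lower ligand gene, from 25.2 to 11.1 CPM with 88 and 23 UMIs. Venous cells, a smaller part of the hypoxia cells, held 76 of these UMIs in normoxia and 9 in hypoxia. The hypoxia UMIs came from 10 cells. In general capillary cells Tgfb2 went the other way, from 2.36 to 13.9 CPM with 3 and 9 UMIs. Tgfb1, with the most UMIs of the list, was within the fold at 152 and 127 CPM. Bmp4 was highest in fibroblast-like cells, at 273 CPM, and Bmp5 in SMC-like cells, at 415 CPM. Gdf2 and Bmp10, the ligands that bind ALK1 most tightly, are made mainly outside the vessel wall: Bmp10 had no UMI in EC-like cells, and Gdf2 had 1.

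Among the other receptor genes, 6 of 8 were tested, 3 were lower (background 9.84%) and 1 was higher (7.7%). Tgfbr3, the type 3 receptor, was at 134 and 76.8 CPM, a ratio of 0.573 (0.475 to 0.687). Acvr2a was at 39.5 and 22.2 CPM, a ratio of 0.562 (0.393 to 0.790). Acvr1 was at 22.1 and 14.0 CPM, a ratio of 0.635 (0.399 to 0.985) from 77 and 29 UMIs. Tgfbr2, the type 2 receptor of TGF-beta, was at 102 CPM (normoxia) and 174 CPM (hypoxia), with a ratio of 1.70, and its ratios in the low, middle and high immediate-early bands were 1.61, 1.79 and 1.53. Past the fold, the genes of this list thus went both ways, and Tgfbr2, of the TGF-beta branch, was the only higher one. Of the intracellular SMADs 4 of 6 were tested and none passed the fold, with Smad4, the one with the most UMIs, at 115 and 121 CPM.

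Of 19 antagonist and inhibitor genes, 10 were tested, 5 were lower (background 9.84%) and 1 was higher (7.7%). Bambi, a pseudoreceptor without a kinase domain, was at 31.5 CPM (normoxia) and 6.76 CPM (hypoxia), with a ratio of 0.215 from 110 and 14 UMIs. Smurf2, a ubiquitin ligase that acts on SMADs and receptors, was at 304 and 162 CPM, a ratio of 0.533, with 0.504, 0.483 and 0.488 in the bands. Tob1 had a ratio of 0.492 in all EC-like cells, from 192 and 56 UMIs, but 1.41, 1.81 and 0.598 in the bands. Twsg1 had 0.620 in all EC-like cells but 1.74, 0.718 and 0.285 in the bands. The 25 hypoxia UMIs of Twsg1 came from 23 cells, too few to read a direction in each band. The band ratios carry no intervals, so no direction is read from those of Tob1 either. Fstl1 had 0.615, with 0.555, 0.529 and 0.976 in the bands, and Nbl1 had 1.58, with 1.55, 1.40 and 2.17. Fkbp1a, which binds type 1 receptors and holds them inactive, was the list's most abundant by UMIs, at 803 and 1058 CPM, a ratio of 1.32 within the fold.

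Among other BMP targets, 3 of 9 were tested. Gja4, a gap junction gene of arteries and capillaries, was at 215 CPM (normoxia) and 411 CPM (hypoxia), with a ratio of 1.91, and at 1.74, 1.84 and 2.48 in the bands. Gata2, the list's most abundant by UMIs, was at 375 and 312 CPM, within the fold. Of 6 TGF-beta targets, 4 were tested. Pmepa1, itself an inhibitor of TGF-beta signaling, was at 41.8 and 120 CPM, a ratio of 2.87, and at 2.63, 3.39 and 2.29 in the bands. Ctgf was at 36.7 and 13.0 CPM, a ratio of 0.356, and at 1.05, 0.199 and 0.236 in the bands. Its 27 hypoxia UMIs came from 15 cells, too few to read a direction in each band. Skil, the most abundant by UMIs, was within the fold. The genes whose ratios lay on 1 side in all 3 bands included Tgfbr2, Gja4 and Pmepa1 on the higher side and Smurf2, Bambi and Tgfbr3 on the lower. These ratios carry no intervals, and Bambi had only 14 hypoxia UMIs.

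**Figure D5:**
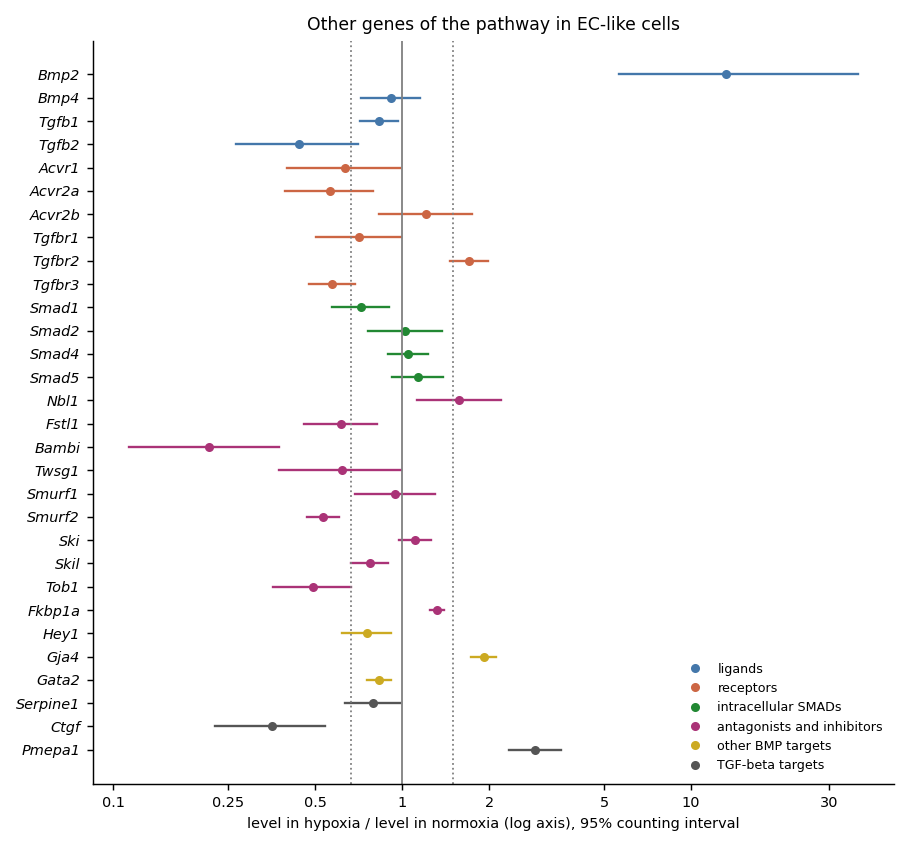
Hypoxia/normoxia ratio in EC-like cells (log axis, points, with 95% counting intervals as lines) of each other gene of the pathway with at least 50 UMIs, colored by list; dotted lines mark 1.5-fold either way. Bmp2, Pmepa1, Gja4, Tgfbr2 and Nbl1 lie right of the upper dotted line, and Bambi lies farthest left.

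The pattern of each member over 17 points (named classes and EC subtypes of each library with at least 20000 UMIs, which share 2 libraries) was compared with 5773 other genes by Pearson correlation of log2 levels, as a description. Most like Bmpr2 were Foxf1 (0.977), Acvrl1 (0.973) and Ehd4 (0.968). Foxf1 also led for Eng, at 0.967, followed by Bmpr2 and Hpgd. Acvrl1 was most like Fmo1, Adgre5 and Bmpr2, Tmem100 most like Clec14a (0.978), Cav1 and Adgre5, and Bmp6 most like Tox3 (0.952), Arl15 and She. Smad7 was most like Cdr2l, Gata2 and Bmpr2, and Smad6 most like Ifi208, Lysmd2 and Pxdn. For Id1 the leading genes were Caskin2, Als2cl and Gata2, and for Id3 Tgfb1i1 (0.977), Rhoj and Vim. By Spearman rank correlation the match with Id3 was weaker, at 0.649 for Tgfb1i1, 0.858 for Rhoj and 0.622 for Vim. Id2 had no close match, with Hmgb2 at 0.797, and its correlation with the other members was -0.11 to 0.27. Among the other 9 members the lowest correlation was that of Bmp6 with Id3, at 0.567.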

How the data were processed

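The authors dissociated lungs, removed CD45 and CD326 positive cells with beads, and made libraries with the 10x Chromium 3' kit. The authors deposited unnormalized UMI counts for each gene and barcode, made with Cell Ranger 6.1.2 per the file headers. The submitters' processing notes name mm10, Cell Ranger and Seurat.

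A cell needed 200 to 4000 detected genes and no more than 5% mitochondrial UMIs, and the upper limit was the only removal of doublets. Clustering used log values of counts per 10000 and 2000 variable genes ranked over both libraries, leaving out the members and the other pathway genes. It used 30 components, 15 neighbors and Leiden resolution 2 (scanpy 1.11.5). No batch correction was made. A cluster took the class with the highest share of its markers found in at least 25% of cells, needing at least 3. EC-like cells were clustered again on subtype markers alone, at resolution 1 with 10 components, and named by the list with the highest mean fold. Levels carry exact Poisson intervals, ratios conditional binomial intervals, and shares Clopper-Pearson intervals, and the interval of a quotient of 2 ratios is a normal approximation on the log scale. Shares of genes past 1.5-fold are taken over genes whose UMIs, both libraries summed, reach 50. Genes named beside the members were those past 1.5-fold, the gene of each list with the most UMIs and the 3 most alike. The members and lists were chosen with earlier results of these data known. Scripts were tested on simulated counts with 200 changed genes.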

Additional observations from a re-analysis of the deposited data

Results flagged for a closer look

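Tmem100 and Id1 had ratios on both sides of 1 in EC subtypes of the same contrast, with intervals on each side, which is why they are listed here. No test between the subtypes was made, since there is 1 library per condition. The quotient of general capillary over aerocyte ratios, with counting error only, was 1.38 (1.22 to 1.57) for Tmem100 and 1.13 (0.908 to 1.42) for Id1. Tmem100 had a hypoxia/normoxia ratio of 1.42 in venous cells, 0.644 in aerocytes, 0.891 in general capillary cells and 0.693 in arterial cells. Id1 had 1.35 in general capillary cells and 0.612 in arterial cells. When subtypes were taken cell by cell on their markers, Tmem100 stood at 1.99 in venous cells, 0.657 in aerocytes and 1.29 in arterial cells, so that the arterial value did not hold its side, and Id1 stood at 0.794 in arterial cells and 1.31 in general capillary cells. By that rule there were 17 normoxia and 32 hypoxia arterial cells.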

How the results depend on the processing

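No paired analysis was possible because there is 1 library a condition, which also leaves no replicate to omit. Under 10 alternatives planned for the EC-like ratios, every member kept its side of 1, and Bmpr2, Eng, Bmp6 and Smad6 stayed past 1.5-fold in all of them. The number of members lower past that fold was 4 or 5 in all settings, and Smad7 made the difference. The share of all genes past the fold was not counted under the alternatives or in the bands by immediate-early level. With a mitochondrial limit of 10% Tmem100 stood at 0.937, and with no such limit Bmpr2 stood at 0.665, Acvrl1 at 0.893, Eng at 0.493, Id1 at 1.32, Id3 at 1.27 and Tmem100 at 0.965. Without a mitochondrial limit there were 1582 normoxia and 561 hypoxia EC-like cells. Median-ratio scaling gave 0.602 for Bmpr2, 0.791 for Acvrl1 and 0.844 for Tmem100. A mean over cells gave 0.552 for Bmpr2, 0.766 for Acvrl1, 0.397 for Eng, 1.08 for Id1, 0.573 for Smad7 and 0.822 for Tmem100. Weighting hypoxia cells to the normoxia subtype make-up gave 0.894 for Acvrl1. Thinning each cell to 1000 UMIs gave 0.577 for Bmpr2, 0.716 for Acvrl1, 0.373 for Bmp6, 1.08 for Id1, 1.05 for Id3, 0.353 for Smad6 and 0.802 for Tmem100. Cells below 1000 UMIs were left out there, 34 in normoxia and 104 in hypoxia.

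Bands by immediate-early level were added after the data were seen. The low band gave 0.554 for Bmpr2, 0.714 for Acvrl1, 1.03 for Id1, 0.540 for Smad7 and 0.844 for Tmem100. The middle band gave 0.599 for Bmpr2, 0.427 for Eng, 0.983 for Id2, 1.09 for Id3 and 0.839 for Tmem100. The high band gave 0.569 for Bmpr2, 0.507 for Smad6, 0.825 for Smad7, 0.958 for Tmem100 and 1.81 for Id1, so that 1 member was higher past 1.5-fold. In that band Acvrl1, at 1.04, and Id2, at 1.20, crossed to the other side of 1, and the cause was not tested. Leaving out EC-like cells with a fibroblast transcript, also added later, kept all 10 ratios within their intervals.

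With subtypes taken cell by cell, Bmpr2 stood at 1.01 and Tmem100 at 1.29 in arterial cells, both below 1 otherwise, and the other subtype ratios that had an interval off 1 kept their side. In fibroblast-like cells Eng turned to 0.483 with a mitochondrial limit of 10%, the cause was not tested, and Id3 turned to 1.21 as a mean over cells. Without cells holding an EC transcript Eng had 0 hypoxia UMIs in 14 cells (ratio 0, interval 0 to 2.95), which gives no direction. With 1 pericyte-like and no SMC-like hypoxia cell, these classes could not be compared. All 40 other shares of EC-like cells moved with the thinning depth, as a share must.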
